A study of Homo sapiens with 6 samples.

Results

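The nuclear genes of the respiratory chain were followed on 6 arrays of H295R/TR SF-1 cells. These cells are a subclone of H295R, an established line from a human adrenocortical carcinoma, and raise their level of SF-1, a nuclear receptor encoded by NR5A1, when doxycycline (Dox) is added. Per the labels, 3 arrays came from cells given Dox and 3 from cells in basal conditions, all after 72 h in culture. The dose, 1 µg/mL, stands in the title of 1 Dox array and was taken for all 3. Both groups carry the inducible SF-1, and all 6 arrays come from 1 subclone. The question was whether the RNA of the respiratory chain differs between cells with raised SF-1 and cells in basal conditions. Members were the genes whose symbol on the array starts with NDUFA, NDUFB, NDUFC, NDUFS, NDUFV, UQCR, COX4I, COX5, COX6, COX7, COX8 or ATP5, together with SDHA to SDHD, CYC1 and CYCS, without pseudogenes and antisense genes. The rule found 87 of the 19775 genes with a probe set of their own, and used no measured difference. They were grouped by symbol alone, and not every gene under a complex need be a subunit of it. Complex I had 33 subunits and 8 assembly factors. Complex II had 3 genes, complex III 7, cytochrome c 1, complex IV 17 and complex V 18. NDUFA4, NDUFA4L2, SDHB, UQCRFS1, NDUFS5, NDUFS8, NDUFC2 and UQCRH were not analysed here.

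The respiratory chain sits in the inner mitochondrial membrane. Complexes I and II pass electrons from NADH and succinate to ubiquinone, complex III passes them on to cytochrome c, and complex IV hands them to oxygen. Complexes I, III and IV pump protons, and complex V lets the protons flow back to make ATP. Most subunits are encoded in the nucleus and are built together with a few subunits encoded in mitochondrial DNA. In the adrenal cortex the same membrane also holds the first enzyme of steroid synthesis, which draws its electrons from NADPH through its own carriers.

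Arrays are named by label and order of deposition, and the numbers pair no samples. Values are log2 signals with the deposited normalization, so a difference of 1 is a 2-fold change. Array medians lay between 5.56 and 5.60. The arrays did not separate by label. The array labelled Dox 1 was nearly identical to that labelled basal 1, and Dox 2 to basal 3: over the members the SD of the difference was 0.059 for Dox 1 against basal 1 and 0.058 for Dox 2 against basal 3, while between arrays of 1 label it ran between 0.13 and 0.33. Dox 3 and basal 2 had the narrowest spread of values and stood apart from the 4 other arrays, which are called the wide set. NR5A1, the induced gene, had levels of 5.55, 6.21 and 6.41 in Dox 1 to 3, against 5.84, 5.92 and 6.30 in basal 1 to 3. The groups overlapped, with a difference of 0.03 (exact permutation test, two-sided p = 1, in a design that cannot give a p below 0.1). Whether its probe set detects the introduced SF-1 is not given in the sources used here. Members were therefore compared both over all 6 arrays as labelled and, as a further comparison, between Dox 2 and Dox 3 and basal 1 and basal 2, with the array set as a block and basal 3 and Dox 1 left out. The arrays left out were the lowest Dox array and the highest basal array for NR5A1, so its difference of 0.43 in the further comparison (limma adjusted p = 0.081) is set by that choice and checks no label. With basal 1 and Dox 2 left out instead, it was −0.13. Whether any array carries a wrong label was not tested, and every result below of the further comparison rests on the choice of arrays. The titles of basal 1 and Dox 1 are in another style than those of the 4 other arrays. Each near-identical pair shares a title style. In the wide set, Dox 2 minus basal 1 therefore also runs across title styles, and label and title style cannot be told apart there.

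Of 7 adrenocortical markers, 4 lay above the median on all 6 arrays and none lay below it on all 6. STAR, which carries cholesterol into mitochondria, and HSD3B2, a steroid dehydrogenase, were lower in Dox in the further comparison, by −0.54 ± 0.09 and −1.40 ± 0.18 (SE, limma adjusted p = 0.0023 and 0.00051). Of the 5 others, CYP17A1, FDX1 and MC2R had negative and CYP11A1 and NR5A1 positive differences, and none passed the threshold. Of 10 markers of endothelial, stromal, blood and epithelial cells, 5 lay below the median on every array, and EPCAM, an epithelial adhesion molecule, was lower in Dox (−0.76 ± 0.14, limma adjusted p = 0.0062). The 9 others did not pass the threshold, with 6 positive differences, the highest 0.44 for DCN, a stromal proteoglycan, and 3 negative ones. The mean level of these 10 lay between 5.22 and 5.30 in Dox and between 5.23 and 5.27 in basal. The part of these shifts in the results below was not tested. In RNA from whole cultures, fewer cells of a type and less RNA per cell cannot be told apart.

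The letters AAGGTCA are bound by SF-1 as a monomer, and likewise by the estrogen-related receptors, which activate respiratory genes in other tissues. RefSeq promoter entries (GRCh38.p14, 250 bases before to 50 after each start site) were found for 74 of the 87 members, with 92 start sites. AAGGTCA was searched on both strands and stood in 11 of the 92 entries (12%), against 1377 of all 35116 entries (3.92%). These 11 belonged to 10 members, and the windows of 5 are shown because they include the members with the largest positive and the largest negative difference among the 10, and 1 gene each of complexes II, IV and V. Capitals mark AAGGTCA, and each window is printed on the strand that reads it.
NDUFA5, chr7:123601768-123601794, + strand: tcagttgtacAAGGTCAggtcttaatt
NDUFB4, chr3:120596287-120596313, + strand: cctgaagctgAAGGTCAgcatagacaa
SDHD, chr11:112086874-112086900, - strand: ctgagggctcAAGGTCAtccaccaacc
COX8A, chr11:63974622-63974648, - strand: gccgtagcccAAGGTCAggaagccaaa
ATP5F1A, chr18:46098301-46098327, + strand: agccgcaaagAAGGTCAagacagccgg

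The letters lie before the start site in NDUFA5, NDUFB4 and ATP5F1A and after it in COX8A and SDHD. The remaining 5 members with the letters were ATP5MG, ATP5MJ, COX7A2, NDUFS6 and NDUFS7. The motif of NRF1, a regulator of respiratory genes, was taken as GCGCA followed by any base and GCGC, and stood in 17 of the 92 entries (18.5%), against 5.78% of all entries. CCGGAAG, the core bound by ETS factors such as GABP, stood in 23 (25%), against 10.3% of all entries. The last 3 letters of CCGGAAG can be the first 3 of AAGGTCA, and no printed window holds such a join. A match is a description of letters and not of a bound site. SF-1 sites also have a C before AAGGTCA, which the search did not require. Among the printed windows, C stands there in NDUFA5, SDHD and COX8A, and G in NDUFB4 and ATP5F1A.

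Over all 6 arrays as labelled, no respiratory chain gene was called higher or lower in Dox. Of the 87 members 0 passed the test (limma, Benjamini-Hochberg over 19775 genes, threshold 0.05), where the background was 0% of all genes, and 0 members had an unadjusted p under 0.05, against 109 of all genes. The lowest adjusted p of a member was 1. The median difference of the members was −0.01, beside −0.00 over all genes, and single members lay between −0.26 and 0.13. The 95% intervals of 86 members (98.9%) lay within a 2-fold change in either direction, beside 94.6% of all genes. The exception was UQCRC1, a core protein of complex III, whose interval ran from −1.17 to 1.17. For 75 members (86.2%) the interval lay within 0.5 on the log2 scale, beside 64.0% of all genes. The precision is limited by 3 arrays a group. The 2 near-identical pairs carry opposite labels and nearly cancel in these differences, with member medians of −0.02 for Dox 1 minus basal 1 and 0.03 for Dox 2 minus basal 3. The labelled difference therefore rests largely on Dox 3 against basal 2. The lack of calls and the small differences do not show that raised SF-1 left these RNAs unchanged.

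**Figure D1:**
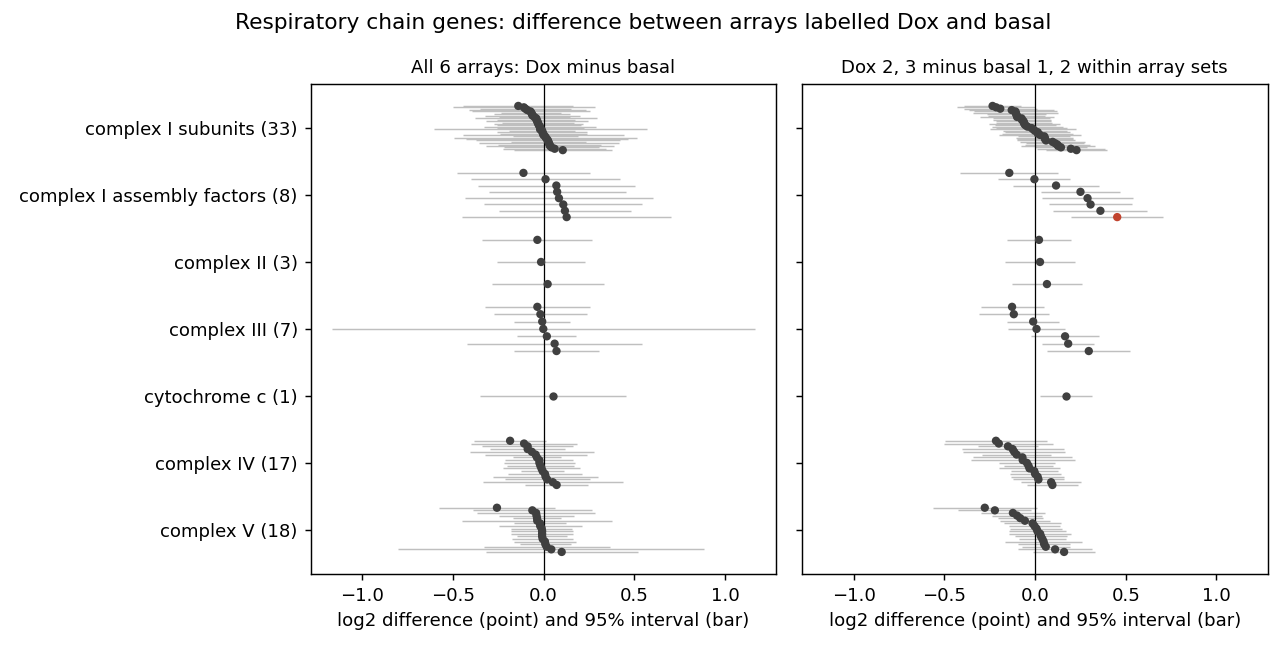
Difference in log2 signal between arrays labelled Dox and arrays labelled basal for the 87 members, by complex, over all 6 arrays (left) and in the further comparison of Dox 2 and Dox 3 with basal 1 and basal 2 (right). Points are fitted differences and bars 95% intervals; 1 point on the right, NDUFAF7 at 0.45, passed the limma threshold and none did on the left.

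Groups that did not overlap were found for 2 members, both lower in Dox, while 3.17% of all genes had groups that did not overlap. COX7A1, the heart and skeletal muscle form of subunit 7A of complex IV, had 5.19, 5.21 and 5.18 in Dox 1 to 3, against 5.39, 5.43 and 5.32 in basal 1 to 3. All Dox arrays lay below all basal arrays, by −0.18 ± 0.08 (SE), with a limma adjusted p of 1. COX6A2, the heart and skeletal muscle form of subunit 6A, had 5.43, 5.39 and 5.30 in Dox, against 5.48, 5.46 and 5.44 in basal, a difference of −0.09 ± 0.09 (limma adjusted p = 1). Both lay below the median signal of every array.

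The further comparison found 1 member higher in Dox and 0 lower, where 3.42% of all genes were higher and 3.58% lower (6.99% in either direction, limma adjusted p under 0.05). At an unadjusted p under 0.05, 14 members passed, 11 of them higher, against 17.3% of all genes in either direction and 8.29% higher in Dox. The median over the members was −0.00, beside −0.01 over all genes, and the members lay between −0.28 and 0.45. All 87 intervals lay within a 2-fold change, beside 96.9% of all genes. A difference over 0.5 in either direction was found for 0 members and for 1190 of all genes. The array sets gave different signs for many members. Dox 2 exceeded basal 1 in 57 members with a median of 0.05, whereas Dox 3 exceeded basal 2 in 29 with a median of −0.07. Both differences were positive in 24 members (27.6%), beside 29.2% of all genes, and both negative in 25 (28.7%), beside 31.7%.

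The member that passed was NDUFAF7, a methyltransferase that modifies a core subunit of complex I early in its assembly. NDUFAF7 had levels of 8.65, 9.09 and 8.80 in Dox 1 to 3, against 8.65, 8.33 and 9.18 in basal 1 to 3. The labelled groups overlapped, since basal 3 was the highest array and basal 2 the lowest, and over all 6 arrays the difference was 0.13 ± 0.24 (SE). In the further comparison NDUFAF7 rose by 0.45 ± 0.12 (SE), or 1.37-fold, with a limma adjusted p of 0.037. Its 3 probe sets gave 0.45, 0.83 and 0.48, and basal 2 was the lowest array in each. The probe set with 0.83 lay at 4.81 in basal 2 and between 6.08 and 6.68 on the other arrays. That with 0.48 lay between 5.23 and 6.27, around the array medians. With basal 1 and Dox 2 left out in place of basal 3 and Dox 1, the difference was −0.03. In the wide set, Dox 2 minus basal 1 was 0.44 and Dox 1 minus basal 3 was −0.52. Dox 1 was nearly identical to basal 1 and Dox 2 to basal 3. The swap therefore nearly reverses the wide set difference and is no independent check. The 1 promoter entry of NDUFAF7 in RefSeq holds neither AAGGTCA, the NRF1 motif nor CCGGAAG.

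The NDUFAF genes, which are not subunits of the finished enzyme, had a median of 0.27 in the further comparison, beside −0.01 over all genes. Of these 8 genes, 6 were higher in Dox in both array sets, beside 29.2% of all genes. At an unadjusted p under 0.05, 5 were higher, beside 8.29% of all genes, and 1 passed the adjusted threshold, beside 3.42%. NDUFAF2, a chaperone of a late assembly step, had 8.84, 9.45 and 9.50 in Dox 1 to 3, against 8.95, 9.28 and 9.31 in basal 1 to 3. The further difference was 0.36 ± 0.12 (limma adjusted p = 0.11), with Dox 3 the highest and Dox 1 the lowest of the 6 arrays. NDUFAF4, a partner of NDUFAF3 in early assembly, had 9.96, 10.24 and 10.02 in Dox, against 10.00, 9.64 and 10.24 in basal. Here basal 2 stood below all other arrays, and the further difference was 0.31 ± 0.10 (adjusted p = 0.12, limma). NDUFAF6, needed to build in the mitochondrially encoded ND1 subunit, had 8.80, 9.07 and 9.04 in Dox, against 8.83, 8.70 and 9.03 in basal, with a further difference of 0.29 ± 0.11 (limma adjusted p = 0.20). Its groups overlapped too, and basal 3 was close to Dox 2 and Dox 3. NDUFAF1, part of an intermediate that builds the membrane arm, had a further difference of 0.25 ± 0.10 (limma adjusted p = 0.21). NDUFAF8 had 0.12, NDUFAF3 −0.00 and NDUFAF5, which hydroxylates NDUFS7, −0.14. With basal 1 and Dox 2 left out instead, the median of the 8 was −0.02, and 0 of them were higher in Dox in both array sets. The pattern of the NDUFAF genes thus depended on which array of each near-identical pair was kept. As for NDUFAF7, the near-identical pairs make this swap nearly reverse the wide set difference, so it is no independent check.

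**Figure D2:**
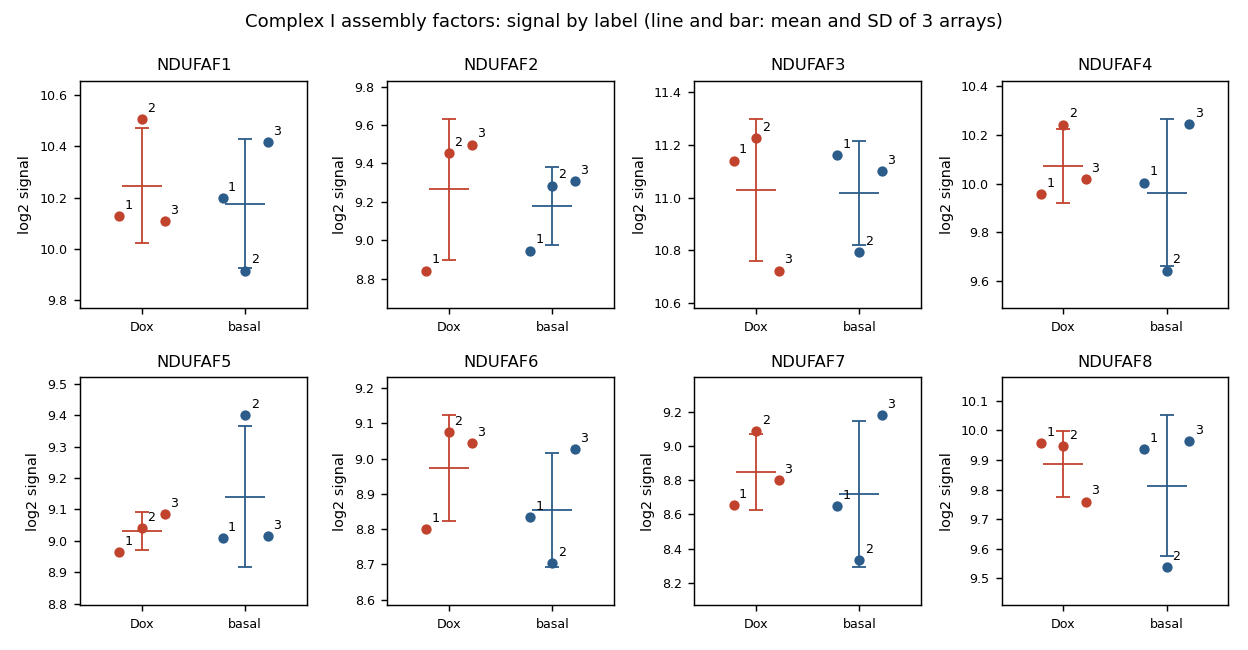
Log2 signal of the complex I assembly factors NDUFAF1 to NDUFAF8 on each array, with arrays labelled Dox left of arrays labelled basal, numbers giving the array and lines and bars the mean and SD of 3 arrays; each panel has its own scale. For NDUFAF7 the highest array is basal 3 at 9.18 and the lowest basal 2 at 8.33, so the labelled groups overlap.

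Complex I assembly factors with other names had a median of −0.06 in the further comparison, with 9 negative and 1 positive. In both array sets, 4 were lower in Dox and 1 higher, beside 31.7% and 29.2% of all genes. At an unadjusted p under 0.05 (limma), 3 were lower and 1 higher, beside 17.3% of all genes in either direction. Of 10 measured, 1 (TIMMDC1) was lower in Dox and 0 were higher, beside 3.58% and 3.42% of all genes. TIMMDC1, a membrane factor for the proton-pumping arm, had 10.03, 9.72 and 9.40 in Dox 1 to 3, against 10.10, 10.07 and 9.68 in basal 1 to 3. It was lower by −0.52 ± 0.11 (limma adjusted p = 0.015), while over all 6 arrays the groups overlapped with a difference of −0.23 ± 0.20. Of 23 complex IV assembly factors 1 was called, COX20, a chaperone of the mitochondrially encoded COX2, at −0.63 ± 0.11 (limma adjusted p = 0.0062), beside 6.99% of all genes called in either direction. Assembly factors of complex II (4 genes), complex III (6) and complex V (5) had 0 calls in either comparison.

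The 33 complex I subunits had a median of −0.02 in the further comparison and lay between −0.23 and 0.23, with 14 positive and 19 negative. NDUFB4, an accessory subunit of the membrane arm, had 13.24, 13.13 and 12.63 in Dox 1 to 3, against 13.25, 12.98 and 13.10 in basal 1 to 3. Dox 3 lay below all other arrays, and the further difference was −0.23 ± 0.07 (limma adjusted p = 0.086). Its other probe set gave 0.10. NDUFA5, an accessory subunit of the arm that takes electrons from NADH, had 11.96, 12.09 and 11.96 in Dox, against 11.86, 11.73 and 12.10 in basal. Its further difference was 0.23 ± 0.08 (limma adjusted p = 0.11), and basal 3 was the highest array, so the labelled groups overlapped. NDUFS3, a core subunit near the ubiquinone site, had a further difference of 0.20 ± 0.09, and NDUFB10, a membrane arm subunit, −0.21 ± 0.10 (limma adjusted p = 0.26 and 0.29).

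In complex II, which also serves the citric acid cycle, no difference exceeded 0.07 in either comparison at the probe set used for each gene. SDHA, the flavoprotein that oxidises succinate, had a further difference of 0.02 ± 0.08. SDHC and SDHD, the membrane anchors and known tumour suppressors of chromaffin tissue, had 0.07 ± 0.09 and 0.03 ± 0.09. Other probe sets of SDHC had further differences between 0.01 and 0.41, and none passed the threshold. SDHD had 11.28, 11.26 and 10.99 in Dox 1 to 3, against 11.20, 11.00 and 11.27 in basal 1 to 3, with Dox 3 and basal 2 the lowest arrays.

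In complex III, CYC1, which carries the heme that reduces cytochrome c, had 10.34, 10.82 and 10.95 in Dox 1 to 3, against 10.36, 10.82 and 10.75 in basal 1 to 3. Dox 1 and basal 1 were low and the 4 other arrays high, so the groups overlapped. The further difference was 0.30 ± 0.10 (limma adjusted p = 0.14). UQCR10, a small subunit beside CYC1, had 0.18 ± 0.07, UQCRC1 0.17 ± 0.08 and UQCR11, the smallest subunit, −0.13 ± 0.08, and none passed the threshold.

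CYCS, cytochrome c itself, the mobile carrier that also triggers caspases once released, had 12.83, 13.02 and 12.62 in Dox 1 to 3, against 12.86, 12.43 and 13.02 in basal 1 to 3. Basal 2 was the lowest and basal 3 the highest array, and the further difference was 0.17 ± 0.07 (limma adjusted p = 0.18). The other 2 probe sets of CYCS gave 0.55 and 0.91. The first lay between 6.03 and 6.81. The second lay at 5.61 in Dox 3 and between 3.69 and 4.18 on the other arrays, below the array medians. With all probe sets averaged the difference was 0.54 and passed the threshold, so the call for CYCS depends on the probe set.

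Complex IV has pairs of isoforms, of which 1 is widespread and 1 restricted to a tissue, and both kinds were at hand. The widespread forms COX4I1, COX6A1, COX6B1, COX7A2 and COX8A lay above the median on all 6 arrays, and their labelled differences lay between −0.04 and 0.07. Among the restricted forms, COX6A2, COX7A1 and COX8C, the last a form known from testis, lay below the median on every array. COX4I2, a form known from lung, had 6.17, 6.02 and 6.39 in Dox 1 to 3, against 6.18, 6.36 and 5.88 in basal 1 to 3. Its groups overlapped (0.05 ± 0.16, labelled). COX6B2 and COX7B2, known from testis, were also above the median on all arrays, with labelled differences of −0.11 ± 0.12 and −0.06 ± 0.14. COX6B2 was near it in Dox 3, at 5.74 beside an array median of 5.59. No restricted form passed either test. COX7B, the widespread partner of COX7B2, and COX5A, a subunit facing the matrix, had further differences of −0.15 ± 0.08 and 0.10 ± 0.06. Of all 87 members, 83 (95.4%) lay above the median on all 6 arrays, beside 62.7% of all genes.

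Complex V had a median of 0.01 in the further comparison and lay between −0.28 and 0.16, at 1 probe set per gene. In a fit of all probe sets with 1 gene symbol, 1 of ATP5F1C gave 0.57 and 1 of ATP5IF1 0.50. Both passed the threshold (limma adjusted p = 0.029 and 0.025). The other probe sets gave 0.00 to 0.03 for ATP5F1C and 0.05 to 0.10 for ATP5IF1. The probe set of ATP5F1C that passed had low levels, between 5.87 and 6.75, while its others lay between 12.34 and 12.99. ATP5MF, a small subunit of the membrane part, had 5.31, 5.32 and 5.09 in Dox 1 to 3, against 5.69, 5.28 and 5.53 in basal 1 to 3. Basal 2 fell among the Dox arrays, and the differences were −0.26 ± 0.13 as labelled and −0.28 ± 0.13 in the further comparison (limma adjusted p = 0.31). This probe set was near the array median, and another one that lists a second gene was not used. ATP5MC1, 1 of 3 genes for the rotating c ring, had −0.22 ± 0.09, ATP5PF, a subunit of the stalk, 0.16 ± 0.08 and ATP5MG, a membrane subunit, −0.10 ± 0.06, and none was called.

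The 10 members with AAGGTCA in a promoter entry, among them NDUFA5 and NDUFB4 shown above, had further differences between −0.23 and 0.23. The median was −0.01, 5 were positive and 5 negative, and 0 passed the threshold (lowest limma adjusted p 0.086).

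The largest spread among the arrays ran across the labels, between Dox 3 and basal 2 and the wide set. Dox 3 and basal 2 were both above the 4 other arrays in 32 members (36.8%), beside 25.4% of all genes, and both below in 22 (25.3%), beside 26.6%. After quantile normalization the counts were 38 above (43.7%) and 16 below (18.4%), beside 25.9% and 24.7% of all genes. UQCRC1 had 10.45, 10.73 and 12.00 in Dox 1 to 3, against 10.53, 11.87 and 10.79 in basal 1 to 3. It was thus 1.27 higher in Dox 3 than in Dox 2 and 1.35 higher in basal 2 than in basal 1, and had a mean of 11.06 ± 0.83 in Dox and 11.06 ± 0.72 in basal (SD, n = 3 each). ATP5F1D, the delta subunit of the ATP-making head, had 10.09, 10.22 and 11.18 in Dox, against 10.15, 11.02 and 10.19 in basal. The gap of Dox 3 and basal 2 over the wide set was 0.94, and 0.69 at its second probe set. NDUFS7, a core subunit with an iron-sulfur cluster, had a gap of 0.60, but −0.12 at its other probe set. NDUFB11, a membrane arm subunit with its gene on the X chromosome, had 0.55. Gaps over 0.5 in either direction were found for 4 members (4.60%), beside 16.3% of all genes.

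**Figure D3:**
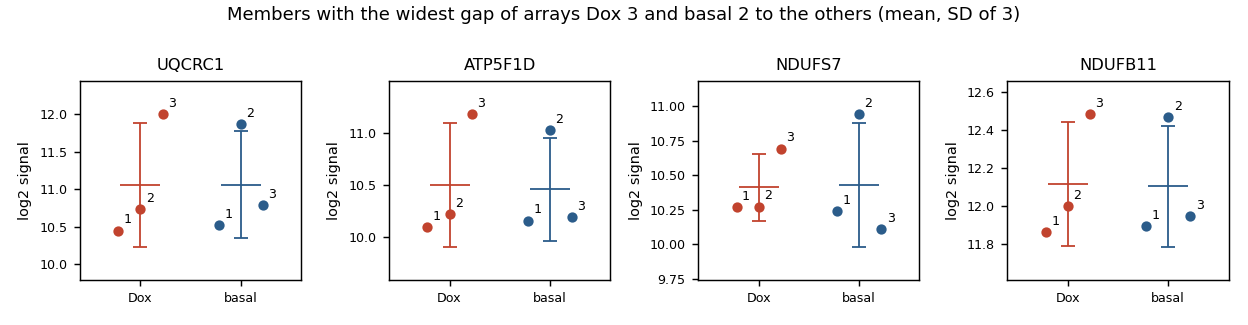
Log2 signal of members with the largest gaps between Dox 3 and basal 2 and the 4 other arrays, with arrays labelled Dox left of arrays labelled basal, numbers giving the array and lines and bars the mean and SD of 3 arrays; each panel has its own scale. UQCRC1 is at 12.00 in Dox 3 and 11.87 in basal 2, and between 10.45 and 10.79 on the other arrays.

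Other members were lower in Dox 3 and basal 2. All 3 genes of complex II were below the wide set, with gaps of −0.15 for SDHA, −0.20 for SDHC and −0.26 for SDHD. ATP5PF had 12.78, 12.82 and 12.50 in Dox, against 12.78, 12.21 and 12.80 in basal, a gap of −0.44, the lowest among the members. CYCS and NDUFAF3 each had −0.40 and NDUFB4 −0.38. Other probe sets of these genes did not all give the same sign, since the 2 others of CYCS had gaps of 0.01 and 0.99, the second of SDHD 0.34 and 1 of SDHC 0.27. The gaps of UQCRC1, ATP5F1D, NDUFS7, NDUFB11, ATP5PF, CYCS and the 3 complex II genes kept their sign after quantile normalization. The median SD over the 6 arrays was 0.12 for the members, beside 0.17 for all genes. A range over 1 was found for 2 members (2.30%), UQCRC1 and ATP5F1D, beside 9.29% of all genes.

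**Figure D4:**
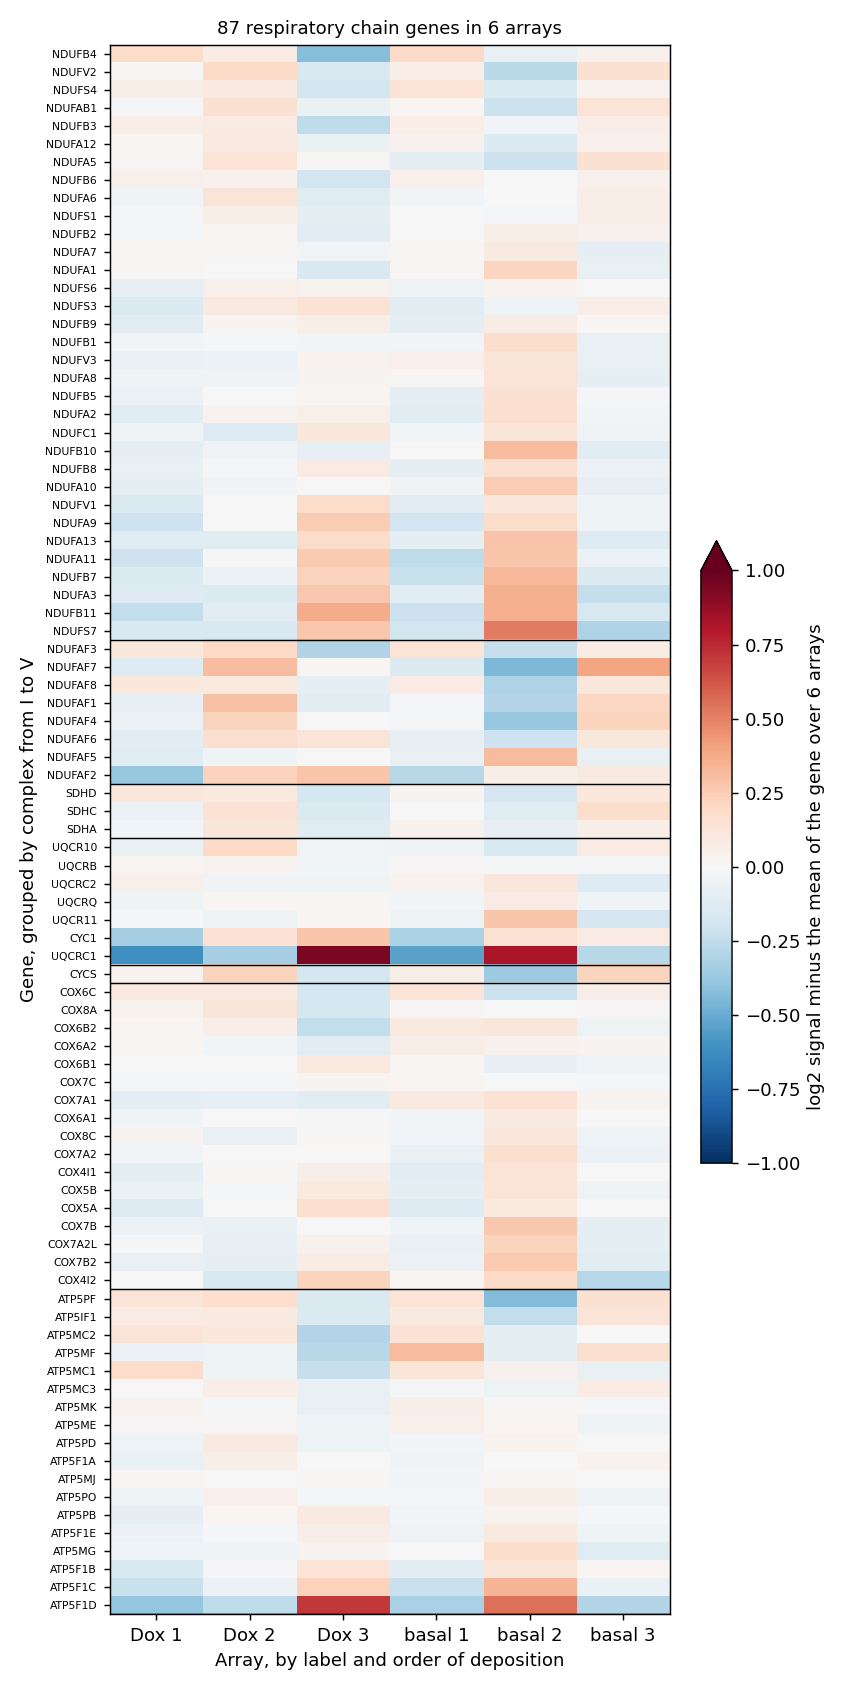
Log2 signal of each of the 87 members minus its mean over the 6 arrays, with genes in rows by complex and arrays in columns, Dox left of basal, and colours clipped at 1. Dox 3 and basal 2 share their pattern and differ from the 4 other arrays, most at UQCRC1 with a gap of 1.32.

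Of the mitochondrially encoded partners, most were higher in Dox 3 and basal 2 than on the other arrays. ND2, a complex I subunit, had 12.20, 12.32 and 13.52 in Dox 1 to 3, against 12.36, 13.54 and 12.46 in basal 1 to 3. Dox 3 and basal 2 were the highest arrays in 6 of the 7 genes measured (ND2, ND4, COX1, COX2, COX3 and ATP6), with ND6 the exception, and the median gap of the 7 was 0.40. The labelled comparison and the further comparison called 0 of the 7, and their further differences lay between −0.03 and 0.06.

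**Figure D5:**
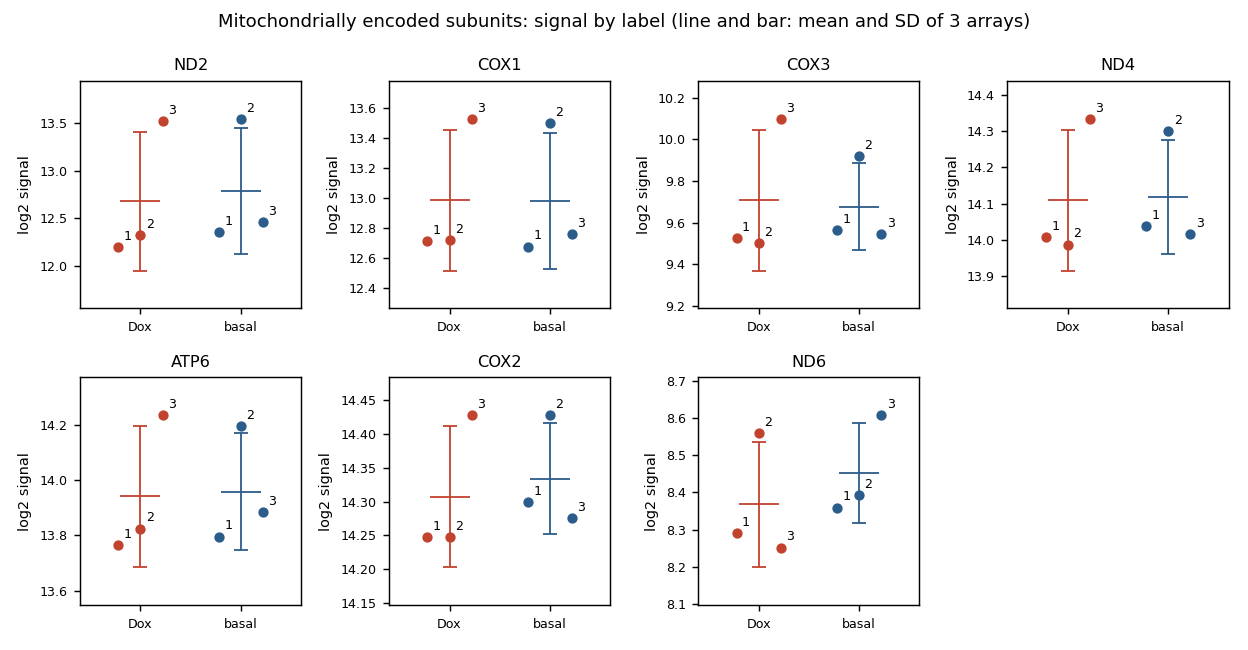
Log2 signal of 7 mitochondrially encoded subunits on each array, with arrays labelled Dox left of arrays labelled basal, numbers giving the array and lines and bars the mean and SD of 3 arrays; each panel has its own scale. Dox 3 and basal 2 are the highest arrays in every panel but that of ND6.

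Of 13 regulators of mitochondrial biogenesis, 1 was lower in Dox and 0 were higher in the further comparison, beside 3.58% and 3.42% of all genes. The 1 called was PPARGC1A, a coactivator that drives respiratory gene expression, at −0.51 ± 0.13 (limma adjusted p = 0.038), with all 6 levels below the array median. TFAM, which packages and transcribes mitochondrial DNA, had 0.28 ± 0.09 and did not pass (limma adjusted p = 0.11). Citric acid cycle enzymes had 0 calls of 12. Of 8 inner membrane carriers and related factors 1 was called, SLC25A4, which exchanges ADP for ATP, at −0.51 ± 0.12 (limma adjusted p = 0.024), beside 6.99% of all genes called. Lists of this size hold too few genes to read such a count against that share. The 7 reference genes had 0 calls, with further differences between −0.06 and 0.10.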

How the data were processed

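Total RNA of 6 cultures was hybridised to HG-U133 Plus 2.0 arrays, 3 labelled Dox and 3 labelled basal, which the study describes as biological replicates. The deposited table holds 1 log2 value per probe set and array, made by the authors, and the submitters' processing notes name GCRMA, with no version. Whether all arrays were normalized together is not given in the sources used here. Values were used without further scaling. Of 54613 probe sets, 41091 (75.2%) had 1 gene symbol, and the probe set with the highest mean over 6 arrays stood for its gene. Probe sets with several symbols (1801) or none (11721) were left out. No filter on low values was applied.

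Groups were compared with limma 3.58.1 (lmFit and eBayes with trend, R 4.3.3), two-sided, with Benjamini-Hochberg over 19775 genes, and the code was tested on simulated data. The further comparison left out basal 3 and Dox 1 and had 1 residual degree of freedom. NR5A1 was also compared by an exact permutation test (scipy 1.17.1 under Python 3.11.15), and figures were drawn with matplotlib 3.10.9. Named were NR5A1, the complex IV isoforms, members whose labelled groups did not overlap and, per complex, the 4 members (all, where fewer) that ranked first by adjusted p in the further comparison. Other genes were named after their values were seen. Members, lists, the further comparison and the naming rule were chosen with earlier results of these data known, so p-values of the further comparison are not independent evidence.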

Additional observations from a re-analysis of the deposited data

How the results depend on the processing

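In the labelled comparison, the counts of called members and of all called genes were 0 under every alternative run. These took other probe set rules, a filter on low values, quantile normalization and other variance models. Blocks were set for array set or for label style of the titles. Each array was left out in turn. Also left out was 1 array of each near-identical pair, either basal 3 and Dox 1 or basal 1 and Dox 2. The last run was the study's rule of 2-fold with an unadjusted p under 0.05. The median member difference lay between −0.04 and 0.02 when arrays were left out in turn. Most of these runs keep at least 1 near-identical pair with opposite labels, which adds little difference between the labels. In the further comparison, the 1 called member became 2 with all probe sets of a gene averaged and 2 with genes above the array median only (NDUFB4 added), and 0 without the variance trend, without the block, with label style as the block, with basal 1 and Dox 2 left out in place of basal 3 and Dox 1, and under the 2-fold rule. The 1383 called genes became 0 without the block (837 at an unadjusted p under 0.05), 0 with label style as the block (1070), 0 with basal 1 and Dox 2 left out instead (112), and 302 under the 2-fold rule, which sets a larger fold. NDUFAF7 had −0.029 with basal 1 and Dox 2 left out instead. That swap nearly reverses the wide set difference, since the arrays exchanged are near-identical with opposite labels. It is no independent check, and why those arrays were near-identical was not tested. The further comparison with 1 array left out has no residual degrees of freedom and gave medians of −0.07 to 0.05 with no test. Almost all named genes were uncalled in both comparisons, so their staying uncalled says nothing of stability. Among values that were not called, 61 in the labelled comparison and 37 in the further comparison changed sign under an alternative, in 25 and 20 of the 34 named genes, and 1 called value, that of NDUFAF7 above, was reversed. Without basal 3 and Dox 1, 34 members (39.1%) were above and 23 (26.4%) below in Dox 3 and basal 2. The shares of all genes were then 30.3% and 30.3%. Without basal 1 and Dox 2, the counts were 39 (44.8%) and 22 (25.3%), beside 30.6% and 29.6% of all genes. These alternatives were chosen after seeing the data. No paired analysis was possible because the labels carry no replicate number shared between the groups. The number of arrays, 3 a group, limits the precision, and COX6A2, COX7A1, COX8C and ATP5MF had signal near or below the array median. Near it were also COX6B2 in Dox 3 and COX4I2 in basal 3.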

Other observations

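The gene names of the respiratory chain also lead to 2 pseudogenes and 3 antisense or divergent transcripts, which were left out of the members. ATP5MC2P1, a processed copy of a c ring gene, had 6.83, 6.89 and 6.82 in Dox 1 to 3, against 6.91, 6.75 and 6.57 in basal 1 to 3, a labelled difference of 0.10 ± 0.13 (SE). COX6A1P1 lay below the median on every array, with a labelled difference of 0.02 ± 0.10. NDUFB2-AS1 had 0.03 ± 0.13 and NDUFV2-AS1 0.04 ± 0.13. NDUFV1-DT, transcribed away from NDUFV1, had 7.54, 7.47 and 7.67 in Dox, against 7.32, 8.01 and 7.39 in basal. It was highest in Dox 3 and basal 2, 0.41 above the wide set. None of the 5 passed the limma threshold in either comparison, and RNA of a pseudogene and of its parent gene may not be told apart by a probe set.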
